A study of Arabidopsis thaliana with 8 samples.

Results

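The comparison asks whether roots and shoots answered iodide alike in the genes that both organs express. Transcript levels of Arabidopsis thaliana were read on 8 ATH1 arrays, which carry short probes grouped into probe sets, each summarised as 1 signal on a linear scale. Plants 3 weeks old in hydroponics received 10 µM NaI or 10 µM KI (the arrays with iodide), or 10 µM KBr or no added salt (the arrays without), and were sampled after 48 h. The base solution was shared by every group, control included. Its iodine is put at 8 nM as a contaminant in the labels, while the methods give that value as a detection limit that was not reached. Each of the 4 treatments gave 1 root array and 1 shoot array (the labels call the shoot samples leaves), each from a pool of 3 plants, so no treatment was replicated.

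For each probe set the iodide response of an organ was the mean log2 signal of NaI and KI minus the mean log2 signal of KBr and control, and the difference between organs was the root response minus the shoot response. A positive difference means that the root response lay above the shoot response. Probe sets entered when their signal was at least 100 on all 8 arrays, which kept 10476 of 22746 and so compared transcripts present in both organs. A further 2427 were under 100 on some shoot array only, 2068 on some root array only and 7775 in both organs. Of the members, 5597 had a single gene name, which gave 5553 genes. Members just inside the limit were At5g20030 (lowest signal 100.03, difference -0.29) and At3g27180 (100.07, difference -0.21), and just outside lay At1g78180 (99.98, difference -0.16) and At1g74360 (99.95, difference 0.32).

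Iodine is not counted among the essential elements of land plants. Roots meet iodide first, in the nutrient solution, and take it up through routes thought to be shared with other anions, while the shoot receives what the xylem carries upward. Haem peroxidases can oxidise halides, and leaves can return iodine to the air as methyl iodide made by halide methyltransferases. The halide list held no gene that could be compared here. In the annotation used, only 2 of its 22 loci had a probe set with a single gene name, and neither passed the signal limit. Probe sets without a single gene name were not read for the list.

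As the replicate spread could not be measured, a difference was called by its size, at 2-fold or more (1 on the log2 scale). It was also tested with limma across all 10476 members (the organ by iodide term, Benjamini-Hochberg adjusted p of at most 0.05). The spread in that test is the one between KBr and control and between NaI and KI within an organ, whose log2 differences had SDs from 0.231 to 0.278. These pairs come from separate pools of plants but also differ in salt, so the p-values hold any effect of bromide or of the cation and do not stand in for biological replicates. All p-values given are adjusted limma values from this model, ± gives its standard error, and pairs of signals name NaI before KI and KBr before control. Freedom from overlap is a weak sign with 2 arrays on each side. Over all members the root to shoot ratios of both iodide arrays lay above both others in 21.3% and below both in 33.8%. The share within an organ was not counted.

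The organs matched their labels in the 4 marker genes, of 29 listed, that had a probe set with a single gene name in the annotation used. The leaf genes RCA and SBPASE, of the Calvin cycle and its activation, read between 16.0 and 90.3 on root arrays, against 11900.4 to 36837 on shoot arrays. The root genes EXPA7, an expansin of root hairs, and At3g01190, a peroxidase, read between 582 and 18119 on root arrays, against 1.64 to 36.4 on shoot arrays. A pair of array measures moved with iodide in a different way in each organ. The ratio of 3′ to 5′ signal of GAPDH was 1.02 and 1.05 on the root iodide arrays, against 1.38 and 1.28 on the other root arrays, and 1.88 and 1.77 on the shoot iodide arrays, against 1.60 and 1.51 on the other shoot arrays. A control probe set for 25S rRNA was 1.06 higher in the root response than in the shoot response on the log2 scale. The ratio of 3′ to 5′ signal of actin was 7.77 and 7.91 on the root iodide arrays, against 10.1 and 9.82 on the other root arrays. In shoot it was 9.46 and 6.41 with iodide, overlapping 12.6 and 9.35 without. The actin 3′ signal thus lay well above the 5′ signal on every array. The part of these measures in the results was not tested. The labels give 1 extraction protocol for all samples and the study's methods a separate kit for roots, so a level difference between organs cannot be told apart from extraction.

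More members passed 2-fold with iodide in root than in shoot. In root 246 members were 2-fold or more higher with iodide (2.35% of the members) and 127 lower (1.21%), against 50 higher (0.477%) and 23 lower (0.220%) in shoot. By limma 731 rose (6.98%) and 935 fell (8.93%) in root, against 628 that rose (5.99%) and 447 that fell (4.27%) in shoot, so the organs lay closer together when small changes were counted. The responses of all members had an SD of 0.445 in root and 0.328 in shoot on the log2 scale, with medians of -0.054 in root and 0.042 in shoot.

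The response of root lay 2-fold or more above that of shoot for 223 members (2.13%) and 2-fold or more below it for 291 (2.78%). By limma 486 members were higher in root than in shoot in their response (4.64%) and 807 were lower (7.70%), and these included 218 of the 223 and 286 of the 291. The limma counts depended on single arrays, and of the omissions of 1 array that of root NaI left the fewest, 254 higher and 384 lower. The median difference over all members was -0.085, and the balance of directions depended on the scaling of the arrays. With each array centred on its median, which moved the median difference to 0.021, the counts were 279 higher and 203 lower by size, so the higher share of the 2-fold calls was 57.9%, against 43.4% with the signals as deposited. The corresponding limma counts were 679 higher and 537 lower. Which direction was the more frequent is therefore not settled, while the 57 genes named by rule kept their direction under that scaling.

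How the calls above and below were made up was counted with the signals as deposited, and it differed between them. Centring each array on its median kept all 223 above and 203 of the 291 below, and the make-up was not counted again. Among the 223, root passed 2-fold upward in 142 with a shoot response under 2-fold and in 6 with shoot upward past 2-fold as well. Shoot passed 2-fold downward in 9 with a root response under 2-fold and in 1 with root downward as well, 1 member was past 2-fold upward in root and downward in shoot, and in 64 neither organ passed 2-fold and the sum of smaller opposite responses did. Among the 291, root passed 2-fold downward in 88 with a shoot response under 2-fold and in 1 with shoot downward as well, shoot passed 2-fold upward in 13 with a root response under 2-fold, 1 member was past 2-fold downward in root and upward in shoot, and 188 rested on such smaller opposite responses. In 87 of the 223 the shoot had been the brighter organ without iodide and the root was the brighter with it, and in 109 of the 291 the order turned the other way. Over all 10476 members the order turned towards root in 694 and towards shoot in 1148. Nothing is read from these counts, because a call above or below favours a turn in its own direction.

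**Figure D1:**
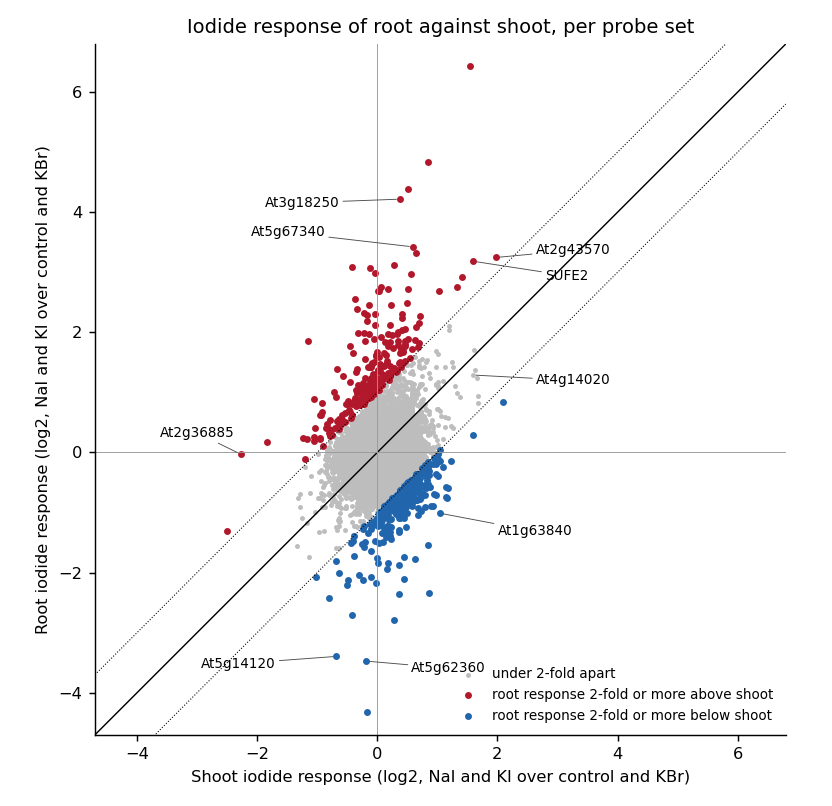
Root iodide response (vertical axis, log2) against shoot iodide response (horizontal axis, log2) for the 10476 members, 1 point per probe set. The solid line marks equal responses and the dotted lines a 2-fold difference. Red points (223) lie above it, mostly stretched along the root axis up to a root response of 6.43, and blue points (291) lie below it, many of them as a band just past the dotted line.

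No array served both organs. Pearson's r of the root with the shoot response was 0.168 and Spearman's rho 0.0918 over the members, given as a description because probe sets of 1 array are not independent. Over the 417 members past 2-fold in an organ the correlations were 0.361 and 0.329. These members were picked by the size of the same responses, which by itself alters a correlation, so nothing is read from the rise. The axis of greatest spread rose 3.94 in root for each 1 in shoot. At so low a correlation that figure mainly follows the larger SD in root (0.445, against 0.328 in shoot). It is not a ratio of the root to the shoot response of a gene. In both organs together 21 members were 2-fold or more higher and 6 were 2-fold or more lower, and 1 member was opposite in each sense.

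The 8 named genes with the largest positive differences had root signals between 106 and 440 without iodide and between 724 and 2851 with it. At3g18250, of unknown function, had root signals of 1624 and 2579.7 with iodide, against 114 and 106 without, while its shoot signals were 142 and 169.7 with iodide, against 114 and 125 without. The root iodide arrays stood far above the other root arrays and the shoot iodide arrays just above the other shoot arrays, and the difference was 3.84 ± 0.31 (adjusted p = 1.8e-06). The shoot response of 0.38 did not pass the test (adjusted p = 0.29). At5g67340, a U-box ubiquitin ligase with armadillo repeats, had the same shape: 1541 and 1564 on root iodide arrays, against 126 and 166 on the other root arrays, and 162 and 175 on shoot iodide arrays, against 105 and 119 on the other shoot arrays (difference 2.83 ± 0.27, adjusted p = 9.9e-06). Without iodide both organs read this gene at or near the signal limit.

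SWEET2, a sugar transporter of the vacuolar membrane, reached 2226 and 1887 in root with iodide, against 391 and 389.7 without, and read 146 and 153 in shoot with iodide, against 166 and 216 without. The shoot signals of both iodide arrays lay just under those of the other arrays, and the difference was 2.73 ± 0.25 (adjusted p = 5.6e-06). At1g12200, a flavin-containing monooxygenase, went the same way in root (2851 and 2710.4 with iodide, against 439.7 and 428 without), with overlapping shoot signals (273 and 203 with iodide, against 184 and 297 without). Its difference was 2.67 ± 0.29 (adjusted p = 3.1e-05), and KBr alone moved the same quantity by 0.73. NANA, a chloroplast aspartyl protease, had 1891 and 2559.7 in root with iodide, against 286 and 407 without, and 391 and 413 in shoot with iodide, against 356 and 435 without (difference 2.66, adjusted p = 1.7e-05).

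For 3 of the 8 the shoot had been at least 2-fold the brighter organ. At1g28600, a GDSL lipase, had 834 and 1110.3 in root with iodide, against 149.7 and 179 without, and 1259 and 1341 in shoot with iodide, against 1671 and 1702 without. The organ gap was narrower with iodide than without, with a difference of 2.93 ± 0.22 (adjusted p = 7.0e-07). At1g53070, a legume-type lectin, stood at 1088 and 724 in root with iodide, against 179 and 177 without, and at 462 and 405 in shoot with iodide, against 503 and 509 without, so the root became the brighter organ (difference 2.54, adjusted p = 2.0e-05). At2g25510 was among the brightest shoot transcripts, at 44867 and 62662 with iodide, against 28998 and 39511 without, where it rose (0.65, adjusted p = 0.019). Its root signals of 2622 and 2374 with iodide, against 254 and 243 without, rose further (difference 2.68, adjusted p = 2.6e-06).

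Genes with a root response far below that of shoot were mostly well expressed in the root without iodide. Nothing is read from this, because a gene that falls far in root stays at 100 or more only from a high level. At5g62360, a protein of the invertase and pectin methylesterase inhibitor family, had 102 and 110.0 in root with iodide, against 1227 and 1124 without, and 1649 and 1485 in shoot with iodide, against 1510.1 and 2091 without. The root signals with iodide lay at the limit of 100 and the shoot signals overlapped (difference -3.29 ± 0.22, adjusted p = 3.8e-07). At5g14120, a transporter of the major facilitator superfamily, fell in both organs: 557 and 633 in root with iodide, against 5890.4 and 6629 without, and 1905 and 2041 in shoot with iodide, against 3224 and 3099 without. The fall was larger in root (-3.39, adjusted p = 4.9e-11) than in shoot (-0.68, adjusted p = 0.0027), by -2.71 ± 0.16 (adjusted p = 1.4e-07). At1g49500, of unknown function, did likewise with 482 and 495 in root with iodide, against 3075 and 3316 without, and 1883 and 2111 in shoot with iodide, against 2503 and 2831 without (difference -2.29, adjusted p = 6.8e-07).

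In a second set the root fell while the shoot moved up a little. At5g66490 had 644 and 632 in root with iodide, against 2211 and 2132 without, and 751 and 704 in shoot with iodide, against 479 and 467 without. Neither organ's signals overlapped, the shoot rise passed the test (0.62, adjusted p = 0.0065), and the difference was -2.39 ± 0.18 (adjusted p = 7.0e-07). DEWAX (At5g61590), an ERF transcription factor that represses wax genes, had 503 and 592 in root with iodide, against 1638 and 2029 without, and 761 and 791 in shoot with iodide, against 557 and 578 without (difference -2.19 ± 0.20, adjusted p = 7.4e-06). Its shoot response of 0.45 missed the threshold (adjusted p = 0.057). At3g01690, of the alpha/beta hydrolase family, gave a difference of -2.25 (adjusted p = 3.6e-06) and At1g35612 one of -2.02 (adjusted p = 7.9e-04), with a root fall in each and no shoot response past the test.

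**Figure D2:**
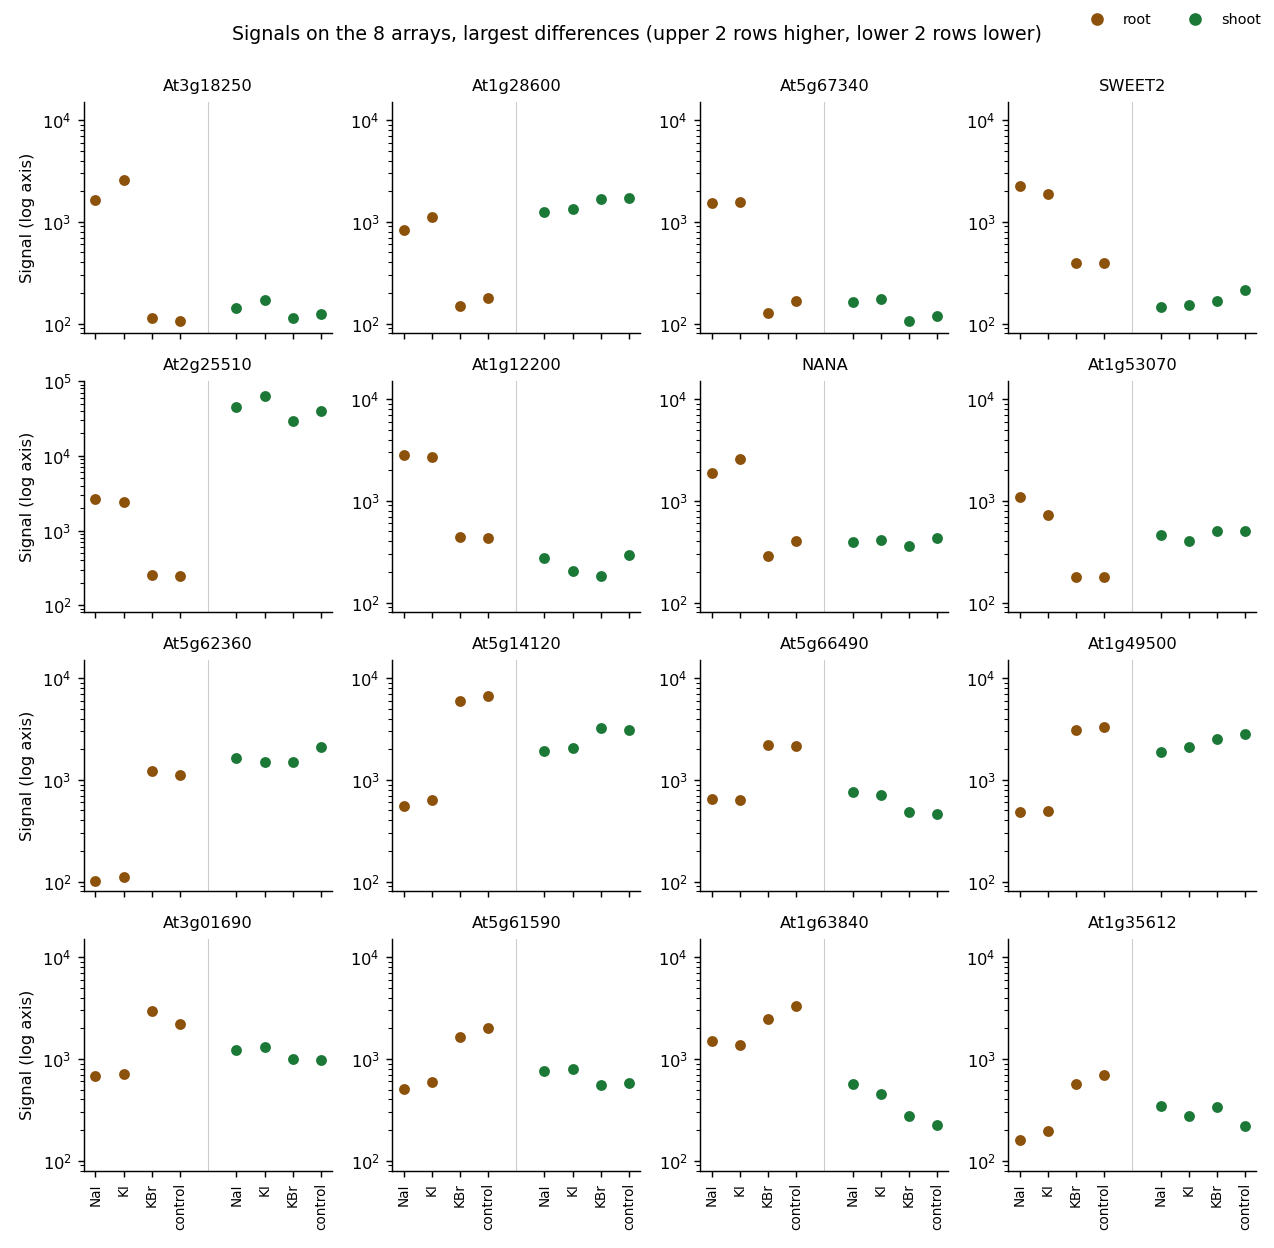
Signal (vertical axes, log scale) of the 8 named genes with the largest positive and the 8 with the largest negative difference, 1 point per array, with root in brown left of shoot in green and the arrays in the order NaI, KI, KBr and control. In the upper rows the root iodide arrays stand above the other root arrays, as in At3g18250 (1624 and 2579.7, against 114 and 106), and in the lower rows they stand below.

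Larger differences still belonged to probe sets without a single gene name in the table used here, and they are given by their identifiers. 245035_at had 12098 and 10612 in root with iodide, against 170.5 and 102 without, and 1644 and 1086 in shoot with iodide, against 541 and 384 without, so it was higher with iodide in both organs and by 4.87 more in root. 252291_s_at read 3787 and 3407 in root with iodide, against 122 and 128 without, and 9455 and 6969 in shoot with iodide, against 4880.0 and 4163 without (difference 3.99). On the other side 262826_at had 192 and 175 in root with iodide, against 3790.3 and 3551 without, while all its shoot signals lay between 185 and 241 (difference -4.15).

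Of the 5 named genes past 2-fold upward in both organs, 4 had the larger response in root. At2g43570, a chitinase, had 8574 and 8356 in root with iodide, against 1157 and 688 without, and 1234 and 849.7 in shoot with iodide, against 278 and 245 without. The iodide arrays stood clear of the others in both organs, and the root response of 3.25 exceeded the shoot response of 1.97 by 1.27 ± 0.29 (adjusted p = 0.01). SUFE2, an activator of the cysteine desulphurase that serves iron-sulphur cluster assembly, had 1679 and 1822 in root with iodide, against 232 and 159.7 without, and 548 and 491 in shoot with iodide, against 171 and 173 without (difference 1.59 ± 0.26, adjusted p = 0.0011). At1g65500 (1.504, adjusted p = 0.0046) and the mannose-binding lectin At5g18470 (1.44, adjusted p = 0.0025) followed the same pattern. At4g14020 was the exception, with responses of 1.29 in root and 1.59 in shoot and a difference of -0.30 ± 0.27 (adjusted p = 0.51). At4g02850 was the 1 named gene past 2-fold downward in both, at -1.09 in root and -1.26 in shoot (difference 0.17 ± 0.25, adjusted p = 0.71). For both of these genes the organs were not shown to differ.

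Some genes had a shoot response past 2-fold beside a root response under 0.5 on the log2 scale. Of these, At2g36885 had 275 and 224 in root with iodide, against 257 and 249 without, and 288 and 291 in shoot with iodide, against 1399 and 1402 without. The root signals overlapped, the shoot signals fell to the root level, and the difference was 2.24 ± 0.23 (adjusted p = 1.7e-05). UGT76C2, which glucosylates cytokinins, had 474 and 427 in root with iodide, against 419 and 348 without, and 137 and 128 in shoot with iodide, against 336 and 287 without (difference 1.47 ± 0.26, adjusted p = 0.0018). At5g38690 (-1.20), At5g50310 (-1.20) and At3g14740 (-1.16) fell in shoot, with differences of 0.96 (adjusted p = 0.03), 1.09 (adjusted p = 0.0057) and 1.39 (adjusted p = 0.025).

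In the upward direction the shoot responses of the 5 named genes lay between 1.01 and 1.12. The calmodulin-binding protein At2g18750 had 637 and 710.1 in root with iodide, against 822 and 774 without, and 449 and 342 in shoot with iodide, against 215 and 156 without. Both organs were free of overlap, in opposite directions, although the root response of -0.25 did not pass the test (adjusted p = 0.44), and the difference was -1.35 ± 0.26 (adjusted p = 0.0039). At2g25590 (-1.40, adjusted p = 0.0035), At5g58787 (-1.19, adjusted p = 0.0069) and the ankyrin repeat protein At1g10340 (-0.70, adjusted p = 0.042) were also lower in the root response. The cytochrome P450 CYP71B23 missed the threshold (-0.86 ± 0.27, adjusted p = 0.051), so its larger shoot response was not shown to differ from that of root.

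Responses of 1.5-fold or more in opposite directions were found in 9 members with root up and shoot down (0.0859% of the members) and in 35 with root down and shoot up (0.334%). At the same threshold 102 were higher in both organs (0.974%) and 56 lower in both (0.535%). The scaling bears on the balance of 9 and 35, since the medians of all members were -0.054 in root and 0.042 in shoot. That balance was not counted under another scaling. Over the alternatives the count of opposite responses ranged from 23 to 110. At1g63840, a RING finger protein, had 1484 and 1383 in root with iodide, against 2492 and 3345 without, and 568 and 456 in shoot with iodide, against 275 and 223 without. It fell in root (-1.01, adjusted p = 5.0e-04) and rose in shoot (1.04, adjusted p = 0.0019), a difference of -2.05 ± 0.23 (adjusted p = 5.4e-05). At4g34560 did the same, with 184 and 242 in root with iodide, against 396 and 321 without, and 369 and 370.5 in shoot with iodide, against 170.2 and 159 without (difference -1.92 ± 0.28, adjusted p = 4.3e-04), and so did At1g01240 (-1.79 ± 0.31, adjusted p = 0.0018). At4g27450, a gene of the low-oxygen response, ran the other way. Its root signals were 11433 and 12288 with iodide, against 6268 and 7215 without, and its shoot signals 197 and 224 with iodide, against 390.5 and 409.8 without (difference 1.75 ± 0.17, adjusted p = 1.4e-05).

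**Figure D3:**
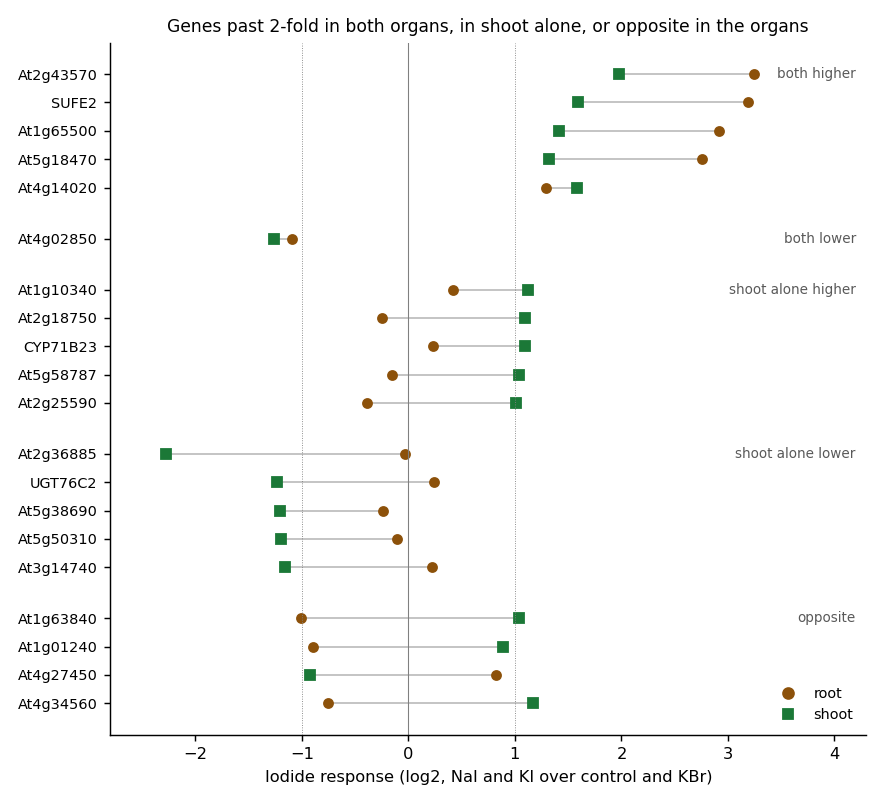
Iodide responses (horizontal axis, log2) in root (brown circles) and shoot (green squares) for the genes named as past 2-fold in both organs, past 2-fold in shoot alone, or opposite in the organs, 1 row per gene. Dotted lines mark 2-fold. At2g36885 has the longest shoot excursion, -2.27 beside -0.03 in root.

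Gene lists were read beside the 5553 genes as a whole, of which 261 were higher in root than in shoot in their response by limma, 418 were lower, and the median difference was -0.10. The core low-oxygen list, genes switched on in oxygen shortage, had 9 genes compared, with 4 higher, 1 lower and a median difference of 0.67. At4g27450, described above, led it. At4g10270 had 3753 and 3869.9 in root with iodide, against 2370.4 and 1308 without, and 237 and 199 in shoot with iodide, against 278 and 214 without (difference 1.28, adjusted p = 0.013), with the root KBr array between the iodide arrays and the control. At3g03270, a universal stress protein, had 7892 and 8489 in root with iodide, against 4119 and 3843 without, and a difference of 1.23 (adjusted p = 0.0019), and the lactate dehydrogenase At4g17260 one of 0.57 (adjusted p = 0.046). At3g10020 went against the list, with 325 and 347 in root with iodide, against 937 and 1006 without, and a difference of -1.27 (adjusted p = 0.0021). The pyruvate decarboxylase PDC2 did not pass (-0.51 ± 0.24, adjusted p = 0.18).

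Class III peroxidases, haem enzymes of the cell wall that oxidise many small molecules, had 9 genes compared of 73 listed, and 2 were higher, 1 lower and 6 not past the test. At5g64120 had 495 and 527 in root with iodide, against 161 and 112 without, and 357 and 283 in shoot with iodide, against 343 and 268 without (difference 1.85 ± 0.30, adjusted p = 0.0011). At1g71695 followed (1.14 ± 0.17, adjusted p = 6.8e-04). At2g37130 fell in root, with 1880.3 and 2191 with iodide, against 4806 and 5316 without, and had 749 and 686 in shoot with iodide, against 615 and 505 without (difference -1.68 ± 0.19, adjusted p = 4.2e-05). The family therefore had no common direction, and its median difference was -0.018.

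Other oxidases and stress genes were few. The 2 berberine bridge enzyme-like oxidases compared were both higher: At5g44400 had 2254 and 1683 in root with iodide, against 291 and 314 without, and 1419.8 and 1627 in shoot with iodide, against 664 and 844 without (difference 1.67 ± 0.23, adjusted p = 3.0e-04), and At4g20830, which oxidises oligogalacturonides, gave 1.06 ± 0.33 (adjusted p = 0.049). CYP71B6 had 4908 and 5382 in root with iodide, against 1553 and 1071 without, and 1361 and 1049 in shoot with iodide, against 1445 and 1343 without (difference 2.22 ± 0.23, adjusted p = 2.0e-05), the 1 of 3 P450 genes compared that was called. Hsp70-2, a cytosolic chaperone, gave 1.91 ± 0.21 (adjusted p = 3.1e-05) from root signals of 2048 and 1812 with iodide, against 406 and 483 without. Glutathione reductase GR1 was higher (0.81, adjusted p = 0.004), and the tau class glutathione S-transferase GSTU27 was lower (-0.66, adjusted p = 0.015).

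**Figure D4:**
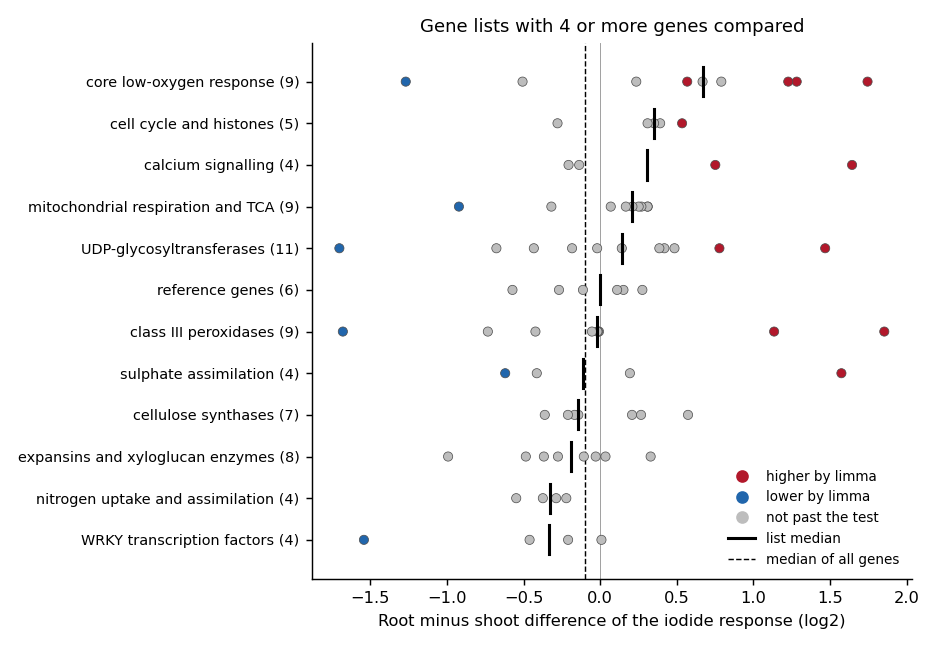
Root minus shoot difference (horizontal axis, log2) of each gene compared in the lists with 4 or more such genes, 1 point per gene, with the number of genes in brackets. Red and blue points passed limma as higher or lower, grey points did not, thick bars are list medians and the dashed line is the median of all genes (-0.10). The low-oxygen list has the highest median (0.67) and the WRKY list the lowest (-0.33).

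Of the UDP-glycosyltransferases, which attach sugars to small molecules, 11 were compared, 2 were higher and 1 lower. UGT72E1, which acts on lignin precursors, had 152 and 255 in root with iodide, against 391 and 381 without, and 384 and 410.3 in shoot with iodide, against 214 and 267 without (difference -1.70 ± 0.32, adjusted p = 0.0027). Both organs were free of overlap and opposite in direction. In the calcium list 2 of 4 were higher. The EF-hand protein At2g46600 had 5445 and 4593 in root with iodide, against 1700.4 and 1538 without, and 5016 and 4501 in shoot with iodide, against 4866 and 4741 without (difference 1.64 ± 0.16, adjusted p = 1.6e-05). Without iodide its shoot signal had been well above that of root, and with iodide the organs read alike. The calmodulin-like CML42 was higher as well (0.75 ± 0.19, adjusted p = 0.02). Among 4 WRKY transcription factors WRKY47 was lower (-1.54 ± 0.29, adjusted p = 0.0033) and WRKY53 did not pass (-0.46 ± 0.34, adjusted p = 0.41).

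The genes called in the sulphate assimilation list belonged to 1 enzyme and went in different directions. APS3 and APS4 both encode ATP sulphurylases, which activate sulphate. APS3 had 867 and 962 in root with iodide, against 359 and 296 without, and 842 and 569.7 in shoot with iodide, against 799 and 679 without. APS4 had 3784 and 4279 in root with iodide, against 3408 and 4428 without, and 2017 and 2229 in shoot with iodide, against 1393 and 1274 without. APS3 thus moved in root with overlapping shoot signals (1.58 ± 0.26, adjusted p = 0.0012), and APS4 moved in shoot with overlapping root signals (-0.62 ± 0.19, adjusted p = 0.042). The p of APS4 was above the threshold when the arrays were centred on their medians, and in 7 of the 8 omissions of a single array. None of the 4 nitrogen genes passed, although the nitrate transporter family gene At1g68570 rose in shoot (1.14, adjusted p = 2.9e-04) and in root (0.59, adjusted p = 0.0098).

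Lists of housekeeping and growth genes held few calls, and lists this short would hold few at the share over all genes. Of all 5553 genes compared 261 were higher and 418 lower, so nothing is read from the small counts. None of 6 reference genes for quantitative PCR passed the test, with differences from -0.57 to 0.28, nor did any of 8 expansin and xyloglucan enzyme genes or 7 cellulose synthase family genes. Of 9 genes of mitochondrial respiration and the tricarboxylic acid cycle 1 was lower, the 2-oxoglutarate dehydrogenase subunit At5g65750 (-0.92 ± 0.24, adjusted p = 0.019), and of 5 cell cycle and histone genes 1 was higher, the histone HTB2 (0.54 ± 0.16, adjusted p = 0.043). Single genes called from short lists were HCT of lignin synthesis (0.73, adjusted p = 0.0069), the indole-3-glycerol phosphate synthase At2g04400 (1.01, adjusted p = 0.0021) and the auxin repressor IAA18 (0.99, adjusted p = 0.0078), all higher, and the dehydrin COR47 (-0.74, adjusted p = 0.0084) and the light-harvesting protein LHCB4.1 (-1.06, adjusted p = 0.0011), both lower. LHCB4.1 read 112 and 106 in root with iodide, against 213 and 214 without, close to the signal limit, and between 28719.5 and 35601 in shoot.

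Among the members kept by the signal limit, the difference also varied with the organ in which a gene was the brighter on the control arrays. These arrays had no added salt. Organ levels were taken from the control arrays and the responses from NaI and KI against KBr alone, so that no array gave both. The arrays of the responses still decided membership, through the signal limit. A member well above the limit in root can fall there and stay in, while one near it drops out. The same holds for falls in shoot. The limit thus favours calls below among members brighter in root and calls above among members brighter in shoot. Its part in the shares was not tested. Of 1803 members at least 2-fold brighter in root than in shoot, 9.93% had a root response 2-fold or more below that of shoot and 1.89% one above it. Of 1348 members at least 2-fold brighter in shoot the shares were 1.93% below and 5.04% above, and of the 7325 in between 1.99% below and 2.12% above. The share below was 8.17% of members 2- to 4-fold brighter in root, 12.2% of those 4- to 8-fold brighter and 21.4% of the 140 that were over 8-fold brighter. The share above was 1.42%, 2.43% and 5% in the same classes, and in the last it was near the 4.53% to 5.62% of the classes at least 2-fold brighter in shoot. In that last class the median response was -0.26 in root and 0.11 in shoot.

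Read from the calls, 51.0% of 351 members called below were at least 2-fold brighter in root on the control arrays, against 17.2% of all members. Of 257 called above 26.5% were at least 2-fold brighter in shoot, against 12.9% of all members. Members brighter in root were called below more often than above, and members brighter in shoot the reverse, also when control and KBr changed places, with 200 as the signal limit, with 50 added to each signal and with centred arrays. Each of these alternatives kept a signal limit on every array, so none removes the selection by that limit. For this reason no cause is read from the shares. In samples of whole organs fewer cells of a type and less RNA per cell cannot be told apart. The root hair expansin EXPA7 was too dim in shoot to be compared, so it has no part in the shares. It read 582 and 635 in root with iodide, against 1731 and 1917 without.

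**Figure D5:**
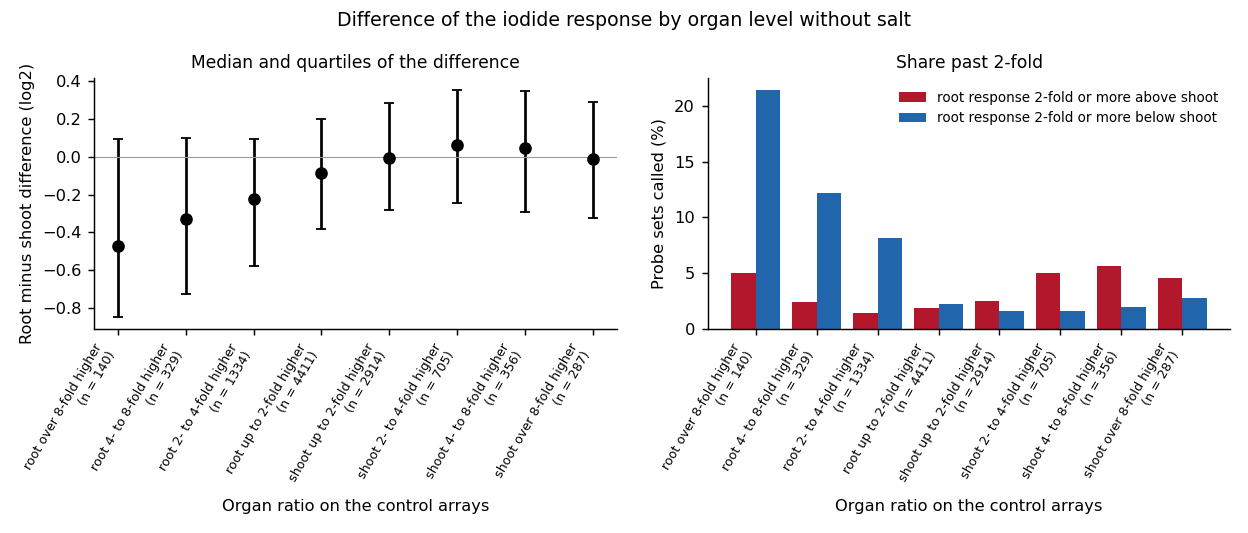
Members grouped by their root to shoot ratio on the control arrays (horizontal axes, most root-rich class at the left, number of members in brackets). The left panel gives the median difference (log2) with its quartiles, computed from NaI and KI against KBr, and the right panel the percentage of members past 2-fold above or below. The share below is 21.4% in the most root-rich class and 2.79% in the most shoot-rich class. Members that fall below the signal limit in an organ are not in the counts, which favours falls in the brighter organ.

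The signal limit left out further root responses. Among probe sets that it removed but that reached 100 on some root array, 661 had a root response of 1 or more and 463 one of -1 or less on the log2 scale. Of these, 283 of the 661 and 133 of the 463 also reached 100 on some shoot array. Of the called genes named, At2g43570, At1g10340, At5g38690, At3g14740, CML42, At4g10270, APS4, HTB2, At5g65750, At4g20830, At4g17260 and GSTU27 had an adjusted p above 0.05 when some single array was left out, HTB2 with each of the 8. The highest p of each gene over these omissions lay between 0.058 and 0.22. Several probe sets of a gene could also disagree, since of 44 genes with more than 1 member, 4 had members whose differences were 2-fold or more apart.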

How the data were processed

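RNA from roots and shoots was hybridised to 8 ATH1 arrays, 1 per organ and treatment, each from 3 pooled plants. The authors summarised probes with MAS5 and deposited an intensity for each probe set on a linear scale, with a 2% trimmed mean between 500.04 and 500.05 on every array. For MAS5, no settings are stated by the sources used. No further normalization was applied, log2 was taken, and a signal of at least 100 on all 8 arrays was required. MAS5 scaling of every array to 1 mean sets changes relative to the rest of that organ's transcripts, so a shift of all transcripts would not be seen. Precision is limited by the number of arrays, and the spread in the test comes from arrays that differ in salt.

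Differences were called at 2-fold and tested with limma 3.58.1 in R 4.3.3 (organ, iodide and their interaction, trend in eBayes, 4 residual and 11.1 prior degrees of freedom) with Benjamini-Hochberg adjustment over the 10476 members. The fit was also run on simulated data with independent noise and no effect of bromide or of the cation. That run cannot show that the p-values hold for these arrays. The genes named were the 8 largest differences past limma in each direction, up to 5 per direction past 2-fold in both organs and 5 in shoot alone, 4 opposite in the organs, and the 2 largest in each gene list with 4 or more genes compared. Other list members, and probe sets without a gene name, were named after their values were seen. Members and the 34 gene lists were chosen with earlier results of these data known. Genes were named through GEO's platform annotation and RefSeq's gene table (TAIR10.1), which gave 13484 probe sets a single locus. The alternatives varied scaling, signal limit, baseline, salts, single arrays, probe set choice, fold and model. Those on organ levels were chosen after seeing the data. Python 3.11.15 with numpy 2.4.6, pandas 2.3.3 and matplotlib 3.10.9 was used.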

Additional observations from a re-analysis of the deposited data

Results flagged for a closer look

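The named genes below were flagged because the organ by iodide term of limma passed an adjusted p of 0.05, so that the same contrast differed between root and shoot. Values are root minus shoot differences on the log2 scale. Among the largest positive ones were At3g18250 (3.84), At1g28600 (2.93), At5g67340 (2.83), SWEET2 (2.73), At2g25510 (2.68), At1g12200 (2.67), NANA (2.66) and At1g53070 (2.54). The largest negative ones were At5g62360 (-3.29), At5g14120 (-2.71), At5g66490 (-2.39), At1g49500 (-2.29), At3g01690 (-2.25), DEWAX (-2.19), At1g63840 (-2.05) and At1g35612 (-2.02). Genes higher with iodide in both organs were flagged at At2g43570 (1.27), SUFE2 (1.59), At1g65500 (1.504) and At5g18470 (1.44).

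Genes whose shoot response was the larger were At2g36885 (2.24), UGT76C2 (1.47), At3g14740 (1.39), At5g50310 (1.09), At5g38690 (0.96), At2g25590 (-1.40), At2g18750 (-1.35), At5g58787 (-1.19) and At1g10340 (-0.70). Opposite responses were flagged at At4g34560 (-1.92), At1g01240 (-1.79) and At4g27450 (1.75). Members of gene lists were the peroxidases At5g64120 (1.85) and At2g37130 (-1.68), UGT72E1 (-1.70), At2g46600 (1.64), CML42 (0.75), WRKY47 (-1.54), At4g10270 (1.28), APS3 (1.58), APS4 (-0.62), HTB2 (0.54) and At5g65750 (-0.92).

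A signal outside the members was flagged in the control probe set for 25S rRNA. Its response was 0.19 in root and -0.88 in shoot on the log2 scale, a difference of 1.06. Its signals were 13540 and 12007 in root with iodide, against 11407 and 10997.5 without, and 5039 and 4606 in shoot with iodide, against 8261 and 9457 without.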

How the results depend on the processing

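Of the 43 named genes past limma, 28 stayed past it under all alternatives that held them, 15 were lost under some alternative and 0 changed sign. The correlation of the organs' responses ranged from 0.127 to 0.215. A signal limit of 200 gave 117 higher and 171 lower by size, a limit of 50 gave 388 and 461, a mean limit per organ 337 higher, and 100 on 1 array of each organ 546 and 561. Keeping 1 probe set a gene gave 116 and 156 by size and 260 and 414 by limma, 1.5-fold gave 730 and 1343, and 4-fold 35 and 16. By limma, lower calls numbered 537 with centred arrays, 499 against control arrays alone and 398 against KBr arrays alone, and a fit on all probe sets gave 258 higher and 415 lower. Another threshold accounts for the changes by fold. The limits changed the number of probe sets compared, to 7620 at 200, 12755 at 50 and 12809 with 100 on 1 array of each organ. The calls did not move in proportion to these numbers. For the changes by limit and for the others the cause was not tested.

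Leaving out single arrays or 1 iodide salt gave 215 to 272 higher and 289 to 399 lower by size, and 175 to 444 higher and 212 to 674 lower by limma. The lowest limma counts kept KI alone (175 and 212) or NaI alone (180 and 266). Counts moved by over 1.5 times without root NaI (254 and 384), root KI (319 and 522), shoot control (308 and 457) and shoot KI (497 lower).

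Signs turned for genes not past limma. Centred arrays moved the median difference to 0.021. Against KBr alone At1g59740 was at 0.085 and At4g34270 at -0.065. Over the omissions At1g59740 ranged from -0.88 to 0.13, At4g34270 from -0.096 to 0.65, At4g02850 from -0.14 to 0.47 and WRKY53 from -0.99 to 0.069. Pairing the root and shoot arrays of 1 treatment, with the salt as a block, gave 399 higher and 614 lower by limma. The labels carry no replicate numbers to pair by. Signals near 100 limit what dim genes can show, since a fall below that level removes a gene from the comparison.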
